A study of Mus musculus with 9 samples.

Results

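The genes Pou5f1, Sox2, Nanog, Klf4, Esrrb, Tfcp2l1, Tbx3, Prdm14 and Zfp42 encode transcription factors tied to the pluripotent state of mouse embryonic stem cells, and the DNA around them was examined here. Each gene was given 1 fixed window of the mm9 genome, and a region of a deposited list was counted when its midpoint lay in a window. The 9 windows were 210 to 370 kb long, 2.22 Mb in all, and held 502 of the 202373 regions of the 5 lists. These were 417 of 186959 regions of the plasmid library, 10 of 4674 mESC enhancers, 5 of 601 LIF-dependent enhancers, 0 of 382 RA-induced enhancers and 70 of 9757 RARA peaks. The rule uses gene positions and no value of the lists, but it was set with earlier results of these data known. They run past the genes, so a region is named for its window and is not assigned to a gene.

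The cells were the E14 line of mouse embryonic stem cells, grown without feeder cells. Activity was read by FAIRE-STARR-seq, in which pieces of accessible DNA are put behind a promoter on reporter plasmids, and a piece that acts as an enhancer raises the amount of its own RNA. A piece is thus measured on a plasmid and not at its place in the genome. The single plasmid library held accessible fragments of cells given 1 µM retinoic acid (RA) for 4 h. It was transfected in 3 biological replicates of 4 transfections each, and 12 h later the cells received either medium with leukemia inhibitory factor (LIF), the cytokine of the pluripotent state, or medium without LIF and with 1 µM RA, for 4 h. The retinoic acid receptor RARA was mapped by ChIP-seq in cells given 1 µM RA for 4 h, with 1 library and 1 input library. mESC enhancers are regions called with LIF over the plasmid library, LIF-dependent enhancers with LIF over RA, and RA-induced enhancers with RA over LIF, so the lists share the LIF libraries. LIF was withdrawn when RA was added, and the lists do not separate the effect of either. The enhancer calls were made on merged replicates and no read depth was given, so the spread between cultures is unknown, no test over cultures was possible, and counts are set beside the same counts over whole lists. No expression values were used here, so the cell type could not be checked against markers.

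Pluripotency of mouse embryonic stem cells rests on transcription factors that bind each other's regulatory DNA. OCT4 (from Pou5f1) and SOX2 bind DNA as partners, and NANOG, ESRRB, KLF4, TFCP2L1 and TBX3 reinforce them, with Klf4 and Tfcp2l1 known as targets of LIF signalling through STAT3. PRDM14 represses differentiation genes, and Zfp42, also called Rex1, is a marker of the naive state. RARA is a nuclear receptor that binds retinoic acid response elements with an RXR partner, and RA drives these cells out of pluripotency. Distal enhancers are known for several of these genes, among them an upstream enhancer of Pou5f1, upstream and far downstream enhancers of Sox2, and shared regulatory DNA of Nanog and Dppa3.

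Promoter sequences of 7 of the 9 genes were found in the RefSeq table of build GRCm38.p6, and 3 of them, shown here because they hold the core hexamer AGGTCA of nuclear receptor sites, give the reference DNA just before the annotated start of the 3 core genes. Each is the 250 bases before the start in the direction of transcription, with AGGTCA or its complement TGACCT in capitals. Their positions are those of GRCm38.p6, chr17:35505782-35506031 for Pou5f1, chr3:34649745-34649994 for Sox2 and chr6:122707239-122707488 for Nanog, all on the plus strand.
Pou5f1: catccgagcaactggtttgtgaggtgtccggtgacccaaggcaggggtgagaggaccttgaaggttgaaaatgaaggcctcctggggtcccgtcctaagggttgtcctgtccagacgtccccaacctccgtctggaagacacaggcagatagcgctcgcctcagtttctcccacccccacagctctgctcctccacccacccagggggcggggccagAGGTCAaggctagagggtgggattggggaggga
Sox2: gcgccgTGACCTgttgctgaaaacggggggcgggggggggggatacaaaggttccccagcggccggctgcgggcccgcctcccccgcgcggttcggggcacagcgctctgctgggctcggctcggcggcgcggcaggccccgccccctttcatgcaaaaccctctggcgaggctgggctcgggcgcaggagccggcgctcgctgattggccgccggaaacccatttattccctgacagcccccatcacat
Nanog: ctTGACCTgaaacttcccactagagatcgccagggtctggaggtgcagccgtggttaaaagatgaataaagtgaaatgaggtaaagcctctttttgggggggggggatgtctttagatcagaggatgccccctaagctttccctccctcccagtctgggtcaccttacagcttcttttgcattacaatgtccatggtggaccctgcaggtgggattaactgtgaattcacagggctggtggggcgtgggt

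The hexamer began 33 bases before the start in Pou5f1, 244 in Sox2 and 248 in Nanog. Searched on both strands of 250 bases, AGGTCA was in 13.8% of the 27025 promoters of the table, 1 per gene. The direct repeat of AGGTCA with 5 bases between the copies, a known form of the RA response element, was in 0 of the 7 promoters and in 2 of the 27025. The longer ESRRB motif TCAAGGTCA, which contains AGGTCA, was in 0 of 7 and in 0.366% of all. The octamer ATGCAAAT, bound by OCT4, was in Zfp42 alone among the 7, and in 1.62% of all promoters. The KLF motif GGGNGTGG was in 4 of 7 (Nanog, Pou5f1, Tfcp2l1 and Zfp42) and in 15.9% of all, and the SP motif GGGCGG in 4 of 7 (Klf4, Pou5f1, Sox2 and Zfp42) and in 33.0%. The SOX motif ACAAAG was in Sox2 (16.5% of all promoters) and the STAT motif TTCNNNGAA in Esrrb (7.14%). A match is a run of letters and not a measured site. The deposited regions are in mm9, so none was placed on a promoter.

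The library held the windows densely. There were 188 library regions per Mb in the windows, against 72.5 per Mb over the span of the library on all chromosomes, a ratio of 2.59. Library regions covered 7.11% of the windows and 2.73% of that span. The Nanog window was the densest, with 56 regions or 255 per Mb, followed by Pou5f1 with 49 (233 per Mb), Tbx3 with 49 (223 per Mb) and Prdm14 with 45 (205 per Mb). Esrrb had 71 regions in the longest window (192 per Mb), Tfcp2l1 42 (162 per Mb), Klf4 33 (157 per Mb) and Sox2 47 (157 per Mb). Zfp42 had the fewest, 25 or 119 per Mb, still above the value for all chromosomes. Each of the 9 windows was thus denser in regions called in the library than the genome as a whole. Windows around other genes were not counted here, so this density is not shown to be particular to these loci.

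The regions themselves were not strongly enriched. Their median fold enrichment, the authors' value at the summit, was 4.93 (range 1.81 to 21.4), against 5.48 in the whole list, and 239 of 417 lay below that median. Of the 417 regions 69 fell in the lowest decile of the list and 27 in the highest. Their median width was 325 bp, against 327 bp. By locus the median fold ran from 4.33 at Klf4 to 5.61 at Sox2. Esrrb had no region in the top decile of the list, while Nanog had 7 and Prdm14 5.

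**Figure D1:**
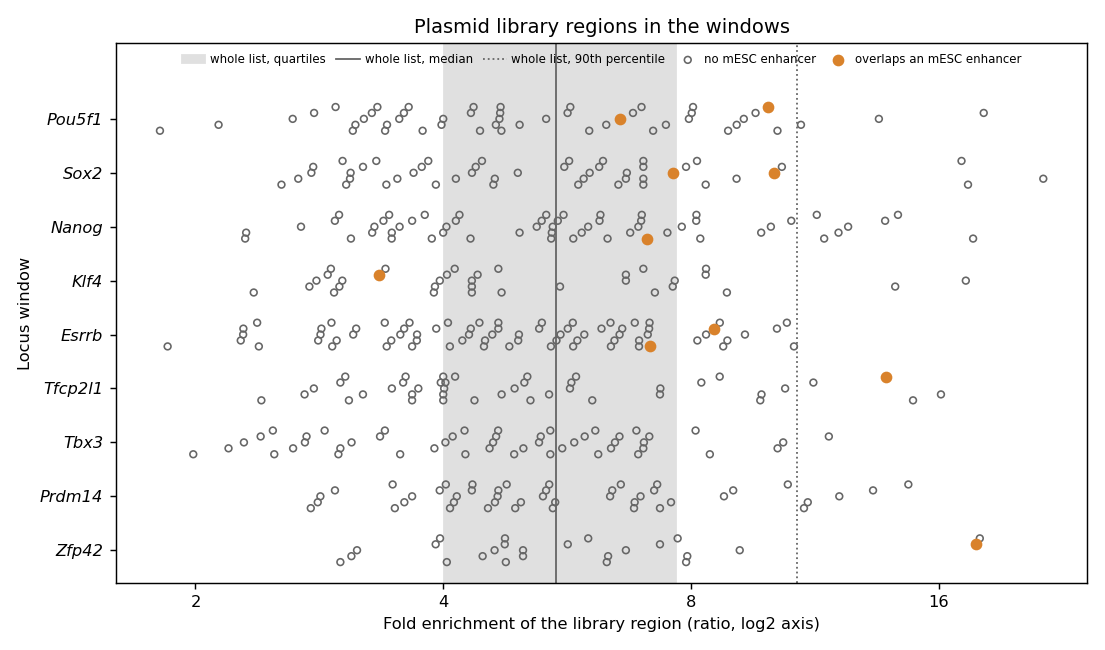
Fold enrichment of each library region (x axis, ratio on a log2 scale) in each window (y axis), with filled points for regions that overlap an mESC enhancer and the quartiles, median and 90th percentile of the whole library list behind them. The 10 filled points lie between 3.35 and 17.7, and the region of highest fold in each window is an open point.

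The most enriched library region of each window was neither an mESC enhancer nor an RARA peak. It reached 21.4-fold at Sox2 (chr3:34644059-34644474), 18.1-fold at Pou5f1 (chr17:35557060-35557715), 17.9-fold at Zfp42 (chr8:44392192-44392639), 17.6-fold at Nanog (chr6:122760466-122761642) and 17.2-fold at Klf4 (chr4:55476844-55477566). At Tfcp2l1 it was 16.1-fold (chr1:120668936-120669234), at Prdm14 14.7-fold (chr1:13124422-13124762), at Tbx3 11.8-fold (chr5:120120616-120121158) and at Esrrb 10.7-fold (chr12:87677262-87677486). Of these 9 regions 8 were in the top decile of the list, of which 15.7% outside the windows overlapped an mESC enhancer and 9.42% an RARA peak, so 0 of 9 stands beside a background of few.

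Per library region, mESC enhancer calls in the windows came close to the share of the whole list. An mESC enhancer overlapped 10 of the 417 library regions, or 2.40% (95% exact Clopper-Pearson interval 1.16 to 4.37%), and 2.47% of all library regions. The interval covers counting error only, and neighbouring regions are not replicates. Per Mb the windows held 4.50 mESC enhancers against 1.81 over the library's span, a ratio of 2.49, close to the ratio of library regions themselves. There were 3 windows with 2 mESC enhancers each (Pou5f1, Sox2 and Esrrb) and 4 with 1 (Nanog, Klf4, Tfcp2l1 and Zfp42), while the Tbx3 and Prdm14 windows held 0 in 49 and 45 library regions. At the background share 2.32 of those last 94 regions would overlap one, so 0 calls there are few against few. Among the 27 window regions in the top decile of library fold 2 held an mESC enhancer (7.41%), against 15.7% of the top decile outside the windows.

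**Figure D2:**
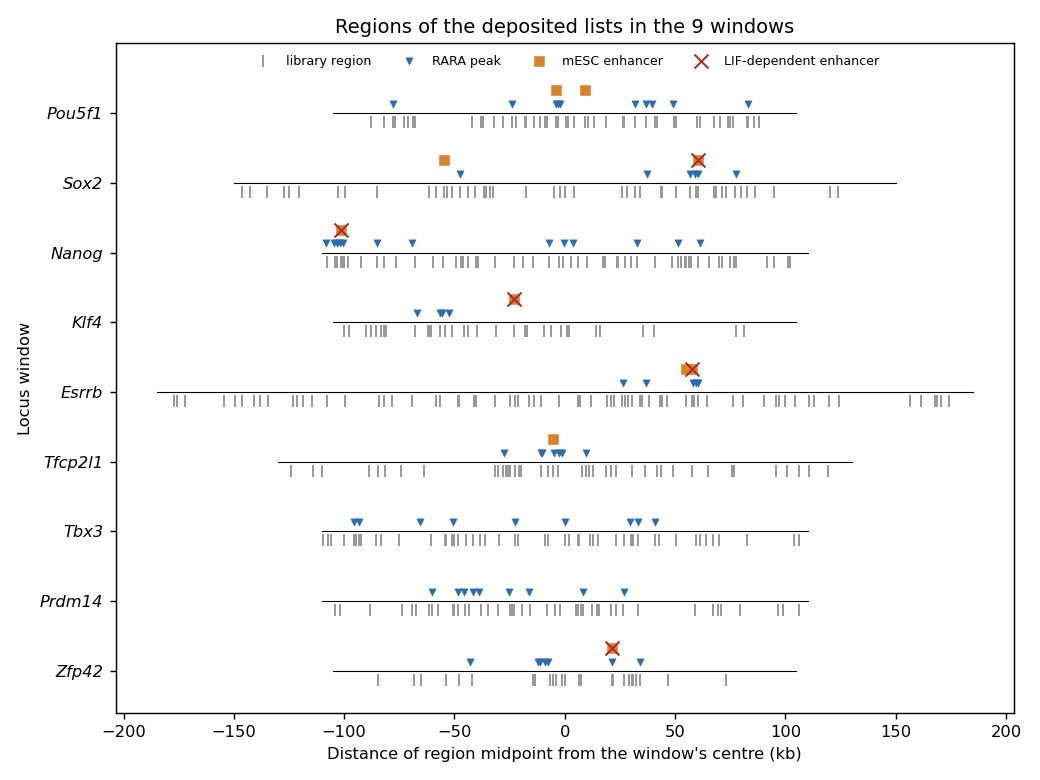
Midpoints of library regions, RARA peaks, mESC enhancers and LIF-dependent enhancers in the 9 windows, as distance in kb from each window's centre (x axis), with 1 line per window as long as the window. Enhancers are few (10, of which 5 carry the cross of a LIF-dependent call), while RARA peaks (70) occur in every window.

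The 10 mESC enhancers had mostly low activity. The activity score in the authors' table, of unstated scale, had a median of 1.75 (range 1.44 to 3.56), against 2.51 over the whole list, and 8 of the 10 lay below the list's median and 7 in its lowest quartile. The fold over the plasmid library had a median of 5.90 (range 4.32 to 22.1), against 8.62, and 7 of 10 lay below that value. The library region under them was also less enriched, with a median of 8.06 against 12.8, and 8 of 10 lay below. No source read here says how the score was made, so whether it is independent of the fold over the library is unknown.

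The 2 mESC enhancers in the Pou5f1 window were among the weakest of the list. The first, chr17:35640843-35641132, had a score of 1.68 (9.29th percentile of the list) and 4.98-fold enrichment over the library. The second, chr17:35653737-35654126, had a score of 1.54 (5.82nd percentile) and 4.57-fold. Their midpoints lay 12.9 kb apart, and neither was LIF-dependent. The first overlapped an RARA peak of 3.90-fold (chr17:35640844-35641159) whose summit was 3 bp from that of the enhancer. The nearest RARA peak to the second was 10693 bp away.

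The Sox2 window held 2 enhancers 115 kb apart that differed in their LIF call. The first, chr3:34545154-34545409, had a score of 1.79 (12.6th percentile) and 10.2-fold enrichment (63.2nd percentile). It was not LIF-dependent and had its nearest RARA peak 7230 bp away. The second, chr3:34660209-34660564, had a score of 1.44 (4.32nd percentile), the lowest of the 10, and 5.84-fold enrichment. It was LIF-dependent, with 3.31-fold more signal with LIF than with RA, and overlapped an RARA peak of 2.27-fold (chr3:34660175-34660493) with summits 18 bp apart. In the RefSeq order of GRCm38.p6 the coding genes beside Sox2 are Dnajc19 and Atp11b.

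The strongest of the 10 lay in the Nanog window. The enhancer at chr6:122558403-122559101 had a score of 3.56 (92.4th percentile) and 22.1-fold enrichment over the library (96.2nd percentile), and was LIF-dependent by 4.43-fold. It lay 8.75 kb inside the window's start. The coding genes before Nanog are Gdf3, a TGF-beta family ligand, and Dppa3, a maternal factor also expressed in naive cells, and the gene after it is Slc2a3, a glucose transporter. No RARA peak overlapped this enhancer, but the nearest was 47 bp past its end (chr6:122559149-122559353, 2.58-fold), and with 4 others it formed a run of 5 weak peaks (2.58 to 2.96-fold) over 7.53 kb on both sides of the enhancer.

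In the Klf4 window 1 enhancer was called, at chr4:55521647-55521858, with a score of 3.19 (82.7th percentile) but a fold over the library of 5.96 (20.7th percentile). Score and fold thus ranked it differently, as they did the first Sox2 enhancer in the other direction. Its library region was the weakest under the 10, at 3.35-fold, and its −log10 q, 5.51, was the lowest. It was LIF-dependent by 7.28-fold, the highest value of the 5, but the −log10 q of that call, 7.48, was the lowest of the 5. Its nearest RARA peak was 29163 bp away, the farthest of the 10.

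The Esrrb window held 2 enhancers with midpoints 2.87 kb apart. The first, chr12:87839798-87840080, had a score of 1.72 and 4.81-fold enrichment and was not LIF-dependent. The second, chr12:87842444-87843171, had a score of 2.395 (42.6th percentile) and 10.4-fold enrichment, was LIF-dependent by 4.17-fold and overlapped the strongest RARA peak of all windows. That peak, chr12:87842455-87843818, reached 21.5-fold, rank 34 of the 9757 RARA peaks, and the stronger of its 2 summits was 19 bp from the enhancer's. These were the 2 of the 10 enhancers that had another mESC midpoint within 10 kb, as 8.94% of all mESC enhancers did. ESRRB is itself an orphan nuclear receptor.

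In the Tfcp2l1 window the enhancer at chr1:120544561-120544953 had a score of 1.86 and 7.36-fold enrichment, was not LIF-dependent and overlapped an RARA peak with 3 summits. The strongest of these, at 3.28-fold, lay 478 bp from the enhancer summit, and another, at 3.17-fold, lay 9 bp from it. The enhancer of the Zfp42 window, chr8:44406018-44406503, had a score of 1.52 (5.41st percentile), the lowest fold over the library of the 10 (4.32) and the best represented library DNA under them (17.7-fold). It was LIF-dependent by 3.32-fold and overlapped an RARA peak with 2 summits, the stronger of 4.51-fold 87 bp from the enhancer summit and the weaker of 3.82-fold 30 bp from it.

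**Figure D3:**
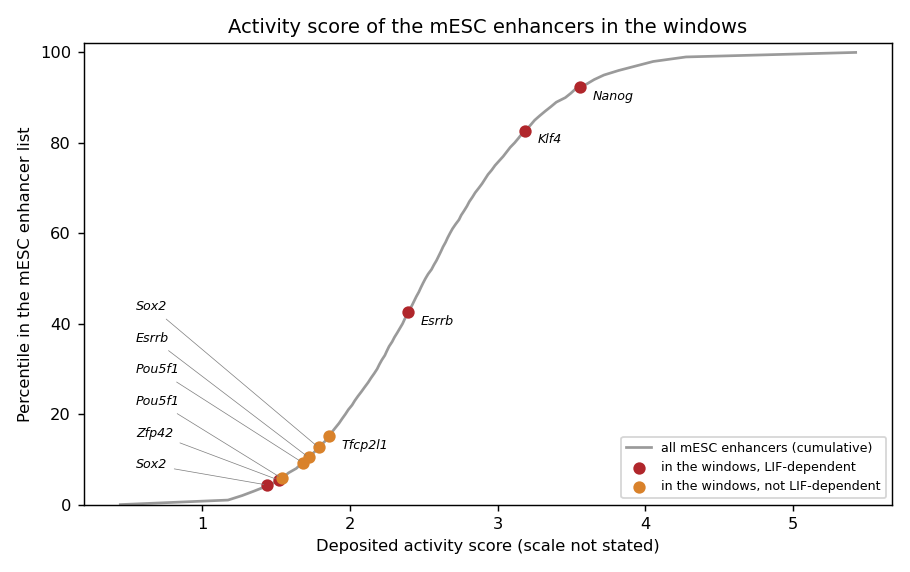
Deposited activity score (x axis, scale not stated) of each mESC enhancer in the windows against its percentile in the list (y axis), on the cumulative curve of all 4674 mESC enhancers, coloured by LIF-dependent call. Of the 10 points 7 sit at or below percentile 15.1, and the LIF-dependent points include both the highest score (3.56, Nanog) and the lowest (1.44, Sox2).

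LIF-dependent calls made up a larger part of these enhancers than of the whole list. Of the 10 mESC enhancers 5 were LIF-dependent (50%, 95% exact interval 18.7 to 81.3%), 1 each at Sox2, Nanog, Klf4, Esrrb and Zfp42, against 12.8% of all mESC enhancers. Per library region the count was 5 of 417, or 1.20%, against 0.311%. At the share of the whole list 1.28 of the 10 would be LIF-dependent. In 4 of the 5 the summit of the LIF over RA call fell on the same base as that of the LIF over library call, and at Nanog it lay 26 bp away. Both calls use the same LIF libraries, and shared summits were not counted over the whole list, so this is no trait of the windows. The LIF over RA fold had a median of 4.17 (range 3.31 to 7.28), against 5.25 in the LIF-dependent list, and 4 of the 5 were below that list's median, so the calls were frequent but not large. Among enhancers with a score below the list's median 3 of 8 were LIF-dependent in the windows (37.5%), against 11.0% outside, and 2 of 2 above it, at Nanog and Klf4, against 14.5%. With 10 enhancers in all, 1 call more or less changes the share widely.

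No RA-induced enhancer lay in any window. An RA-induced enhancer overlapped 0.201% of all library regions, at which share 0.839 of the 417 would be overlapped, and 4.17% of all mESC enhancers, at which share 0.417 of the 10 would be. The count of 0 thus stands beside a background of less than 1, and it records the absence of a call and not of activity. The nearest RA-induced enhancer lay 282 kb from the window of Pou5f1, 291 kb from Nanog and 429 kb from Klf4, and 7487 kb from Sox2.

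RARA peaks were frequent in all 9 windows. The 70 peaks amounted to 31.5 per Mb, against 3.78 per Mb of the library's span, a ratio of 8.34, where library regions had 2.59. That span is not limited to DNA near genes, and windows around other genes were not counted here. Nanog had 13 peaks (59.1 per Mb), Pou5f1 10 (47.6 per Mb), Tbx3 and Prdm14 9 each (40.9 per Mb), Zfp42 7 (33.3 per Mb), Tfcp2l1 7 (26.9 per Mb), Sox2 6 (20.0 per Mb), Klf4 4 (19.0 per Mb) and Esrrb 5 (13.5 per Mb). The window with the fewest peaks per Mb, Esrrb, held the strongest one. The RARA data come from 1 ChIP library of RA-treated cells, so these are counts of calls, with no cells kept in LIF to set beside them.

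Of the library regions in the windows 39 of 417 overlapped an RARA peak, 9.35% (95% exact interval 6.74 to 12.6%), against 2.94% of all library regions. The interval treats regions as independent, but neighbouring regions are not replicates and the peaks come from 1 ChIP library. The share was above that value in each window. It was highest at Pou5f1 (7 of 49, 14.3%), Tbx3 (6 of 49, 12.2%) and Tfcp2l1 (5 of 42, 11.9%), then Nanog (6 of 56, 10.7%), Sox2 (5 of 47, 10.6%), Prdm14 (4 of 45, 8.89%) and Zfp42 (2 of 25, 8.00%). Esrrb (3 of 71, 4.23%) and Klf4 (1 of 33, 3.03%) were close to the background, and counts this small do not order the windows among themselves. Outside the windows too RARA was more frequent in well enriched library DNA, so the share was also read by library fold. In the lower 5 deciles of library fold 7.11% of window regions overlapped an RARA peak against 1.49% outside, and in the upper 5 deciles 12.4% against 4.35%. Weighted to the deciles of library fold found in the windows, a comparison added after the values were seen, the regions outside gave 2.55%, or 10.6 regions, where 39 were counted. The same weighting gave 7.69 regions with an mESC enhancer, where 10 were counted.

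**Figure D4:**
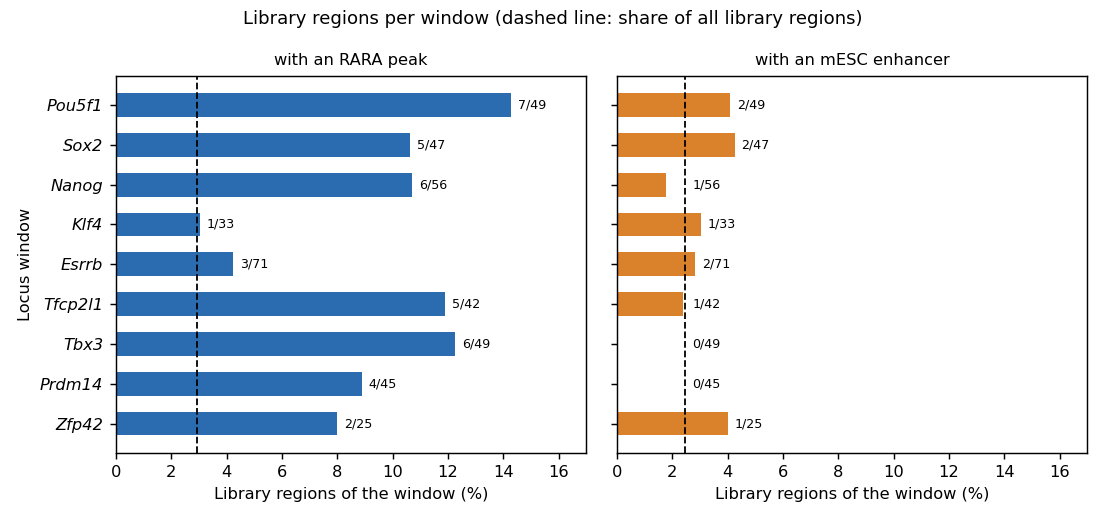
Percent of the library regions of each window (y axis) that overlap an RARA peak (left) or an mESC enhancer (right), with counts beside the bars and dashed lines at the shares of all library regions, 2.94% and 2.47%. All 9 RARA bars pass their line, from 3.03% at Klf4 to 14.3% at Pou5f1, while the enhancer bars lie between 0 and 4.26%.

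The strength of the RARA peaks in the windows was spread around the middle of the list. Their fold enrichment had a median of 3.07 (range 1.91 to 21.5), against 3.06 in the whole list, with 35 of 70 below that value and 7 of 70 in the top decile of the list, which starts at 5.78-fold. Those 7 were 2 at Esrrb, 2 at Pou5f1, 2 at Sox2 and 1 at Zfp42. More than 1 summit was listed for 10 of the 70 (14.3%), against 12.9% of all RARA peaks. An overlap with a library region was found for 39 of 70 (55.7%), against 55.6%, so the other 31 lay outside accessible DNA called in the library.

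**Figure D5:**
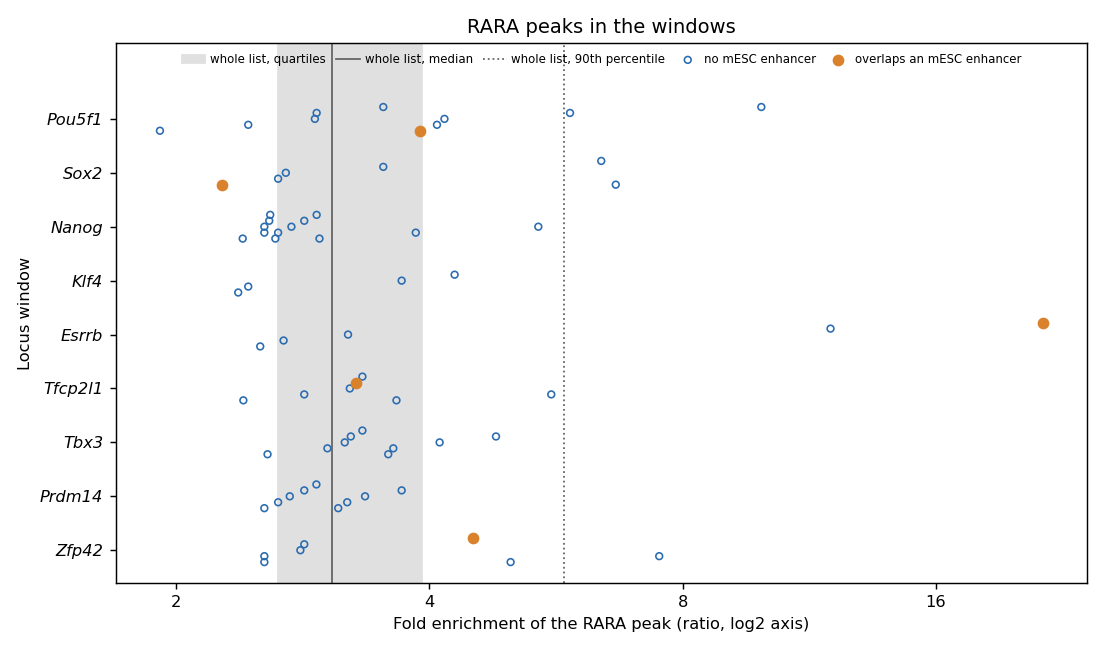
Fold enrichment of each RARA peak (x axis, ratio on a log2 scale) in each window (y axis), with filled points for peaks that overlap an mESC enhancer and the quartiles, median and 90th percentile of the whole RARA list behind them. Most points lie within the list's middle range, 7 lie past the 90th percentile at 5.78, and the 5 filled points range from 2.27 at Sox2 to 21.5 at Esrrb.

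The strongest peak of each window after Esrrb was 9.92-fold at Pou5f1 (chr17:35681282-35681887), 7.50-fold at Zfp42 (chr8:44418874-44419225), 6.66-fold at Sox2 (chr3:34656169-34657184) and 5.58-fold at Tfcp2l1 (chr1:120559682-120559978). Nanog reached 5.39-fold (chr6:122652362-122653080), Tbx3 4.80-fold (chr5:120078857-120079363), Klf4 4.29-fold (chr4:55488244-55488550) and Prdm14 3.71-fold (chr1:13118069-13118247). All of these but that of Tbx3 overlapped a library region, and Esrrb's alone among the 9 overlapped an mESC enhancer. A second strong peak at Esrrb, 12.0-fold (chr12:87845204-87845649), was in the library and was not called as an enhancer.

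The peaks lay close together. Of the 70, 46 had another RARA midpoint within 10 kb (65.7%), against 41.4% of all RARA peaks, and 39 had one within 5 kb (55.7%), against 31.8%. A list that is denser in a window gives shorter distances there by itself. Runs of 3 or more peaks with steps of at most 10 kb numbered 11 and held 40 of the 70 peaks (57.1%), against 22.8% of all RARA peaks. The run of Tfcp2l1 had 5 peaks (2.41 to 3.66-fold) and covered 10.1 kb around the enhancer. A run of 4 peaks covered 9.73 kb at Prdm14, where no enhancer was called, and another of 4 covered 4.75 kb at Zfp42, with none in the library. At Sox2 a run of 3 peaks in 4.33 kb ended on the LIF-dependent enhancer, at Pou5f1 a run of 3 peaks of 3.90 to 4.17-fold covered 2.20 kb from the first enhancer on, and at Esrrb a run of 3 peaks in 3.20 kb began on the LIF-dependent enhancer.

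Where enhancers were called, RARA was often at hand. Of the 10 mESC enhancers 5 overlapped an RARA peak (50%, 95% exact interval 18.7 to 81.3%), at Pou5f1, Sox2, Esrrb, Tfcp2l1 and Zfp42, against 18.5% of all mESC enhancers. With peaks within 5 kb counted the number was 7 of 10, against 28.4%, and within 10 kb 8 of 10, against 33.5%, the exceptions being Klf4 and the second enhancer of Pou5f1. RARA peaks were denser in the windows as a whole (31.5 against 3.78 per Mb), which by itself brings more enhancers near one. The overlap share was 2.71 times that outside for mESC enhancers and 3.20 times for library regions, so it was not particular to enhancers. In the 5 that overlapped, the RARA summit of highest −log10 q lay 3 to 478 bp from the enhancer summit, with a median of 19 bp, against a median of 61 bp in the 861 other mESC enhancers with an RARA peak. With the nearest of all summits of a peak, a reading added after the values were seen, the 5 distances were 3 to 30 bp with a median of 18 bp, against 56 bp. Of the 5 LIF-dependent enhancers 3 overlapped an RARA peak, against 16.6% of all LIF-dependent enhancers. Of the 5 that were not LIF-dependent 2 did, against 18.5% of all mESC enhancers. Both counts thus lay above the share beside them, so the overlap was not particular to LIF-dependent enhancers. The share over all enhancers that were not LIF-dependent was not counted. The median score was 1.68 in the 5 with RARA and 1.79 in the 5 without, and the ranges overlapped (1.44 to 2.395 and 1.54 to 3.56). Outside the windows the medians were in the other order, 2.58 with RARA and 2.50 without. In the other direction 5 of the 70 RARA peaks overlapped an enhancer of any list (7.14%), against 9.19% of all RARA peaks. Of the 39 library regions with RARA 34 overlapped no mESC enhancer (87.2%), close to the 82.9% of all library regions with RARA.

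Just outside the windows the nearest mESC enhancer was 14.3 kb beyond the Zfp42 window, at chr8:44265507-44265922, with a score of 2.19, and it was LIF-dependent by 2.70-fold. The next nearest lay 34.3 kb beyond Sox2 (chr3:34784166-34784401, score 2.47), 53.3 kb beyond Prdm14 (chr1:13273083-13273561, score 2.05, also LIF-dependent by 3.72-fold) and 54.5 kb beyond Nanog (chr6:122824302-122824624, score 3.49). The member nearest to an edge was the Nanog enhancer described above, and the other 9 lay 81.8 to 130 kb inside.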

How the data were processed

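The peak lists carry no header. The submitters' processing notes name the build mm9 and the tools MACS2, Bowtie2, deepTools, SAMtools and UMI-tools, but their versions, order and the filter of each list are not given in the sources read. Deposited peak names speak of merged replicates for the enhancer lists. Each deposited list holds a fold enrichment (ratio), a −log10 q, a score of 10 times that value and a summit. That score is not the activity score reported here. The authors' scored table adds an activity score of unstated scale.

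Rows of 1 region were collapsed to that of highest −log10 q (195417 to 186959 library rows, 11366 to 9757 RARA rows). Regions overlapped when they shared at least 1 bp, tested on simulated regions. Coordinates count from 1 in mm9. Rates per Mb over all chromosomes used the span from the first to the last library region (2580 Mb). Percentiles are ranks within a list. No model was fitted and no test made. Gene order and promoters came from GRCm38.p6 and were not converted. Other pluripotency genes, mm9 sequences of the regions and distances to genes were not analysed here. Every enhancer in a window is named, with the strongest RARA peak and library region of each window; other named regions, the distances of 5 and 10 kb and the weighting by library fold were chosen after values were seen. Windows and lists were chosen with earlier results of these data known. Python 3.11.15, pandas 2.3.3, SciPy 1.17.1 and Matplotlib 3.10.9 were used.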

Additional observations from a re-analysis of the deposited data

How the results depend on the processing

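Of 66 alternative values 61 were labelled close to the reported one and 5 moved. Close meant counts within 1.5 times, and shares and medians within their 95% binomial intervals. The log2 fold, another measure than the score, was counted as moved without applying that limit. For shares of the 10 enhancers the limit was 18.7 to 81.3%, so only a large change could count as moved. Counting any overlap with the window left 417 library regions and 10 mESC enhancers, as reported. With enhancers at or above their list's median −log10 q, 3 mESC enhancers were left and 0.719% of library regions held one, below the 1.25% of all library regions under the same limit, so 7 of the 10 lay under the limit. With library regions at or above the median fold the share was 5.06%, against 4.56% of all such regions. With RARA peaks at or above their median fold 5.76% of library regions overlapped one, against 1.64%. With log2 fold over the library in place of the score the median was 2.56, against 3.11 in the whole list. Windows extended by 50 kb at both ends held 12 mESC enhancers, 6 of them LIF-dependent, and windows shortened by 25 kb held 9, of which 4 were, having lost Nanog's. Leaving out the windows of Esrrb, Pou5f1 or Sox2, tied for the most enhancers, gave LIF-dependent shares of 50%, 62.5% and 50%. RA-induced enhancers stayed at 0 in all alternatives run, but none of these settings could add one. The nearest lay 282 kb beyond a window edge, and the other settings only take regions away or keep more rows of the same regions. No paired analysis was possible because the deposited lists come from merged replicates and hold no value per replicate. Without read counts, the precision of a single fold or score is unknown.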
